A study of Homo sapiens with 12 samples.

Results

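The 8 genes described here were ETV4, ETV5, FOSL1, EGR1, MYC and IER3, which signalling through the kinase ERK is known to induce, and the ephrin receptor genes EPHA2 and EPHA4. They were chosen by gene symbol, and all 8 had a row among the 12931 rows of the expression files. Their transcripts were measured by RNA sequencing in 12 libraries, in 3 groups of 4, of the established cell line WM1366, which comes from a human skin melanoma with a mutant, active NRAS. The control group carried the label of a control diet, and the groups called combination R1 and combination R2 (R1 and R2 from here on) both carried the label of a diet with a MEK inhibitor and a CDK4/6 inhibitor. MEK is the kinase that activates ERK, and CDK4 and CDK6 drive cells past the G1 phase of the cell cycle. The study's design text places the RNA in progressing xenograft tumours, that is, human tumour cells growing in a host animal. The growth and treatment text of every sample, controls included, instead describes melanoma cells in a low-serum medium treated with palbociclib, a CDK4/6 inhibitor, at 0.1 µM and PD0325901, a MEK inhibitor, at 1 nM. The labels give no treatment time, host strain or host age. They state neither what separates R1 from R2 nor whether replicates come from separate tumours, so that the p-values below measure only the spread between these libraries, which may be technical. All groups share 1 cell line.

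ERK is the last kinase of the RAS-RAF-MEK-ERK cascade. In the nucleus it phosphorylates ETS-family factors that sit with serum response factor (SRF) on CArG boxes and switch on immediate-early genes such as EGR1, IER3 and the FOS genes, and it stabilises the FOSL1 and MYC proteins. ETV4 and ETV5 are delayed targets, which the repressor CIC holds down until ERK signalling relieves it, and whose proteins the COP1 ubiquitin ligase marks for degradation. Eph receptors are receptor tyrosine kinases that bind ephrins on the surface of neighbouring cells and steer adhesion and migration. EPHA2 transcription is known to respond to ERK activity, and the receptor is often abundant in melanoma.

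The libraries held 20003891 to 39009384 reads in listed genes. Values are read counts normalised by the authors, and a value of 0.0728 to 0.158 corresponded to 3 reads, depending on the library. Among the pathway's reference genes, NRAS was at 978 ± 109 in R1, 144 ± 24.8 in R2 and 126 ± 12.6 in control (mean ± SD, n = 4 each, here and below). The transcript of the ERK phosphatase DUSP6 was at 124 ± 13.7, 50.8 ± 4.52 and 80.3 ± 22.9, and that of the feedback inhibitor SPRY4 at 139 ± 14.2, 48.5 ± 13.6 and 56 ± 5.6, in the same order. R1 libraries differed from the others in several general measures. Mitochondrial transcripts took 2.17% to 3.28% of reads in R1, 4.02% to 9.63% in R2 and 5.86% to 10.9% in control, while ribosomal protein transcripts took 9.65% to 11.8%, 5.63% to 6.84% and 5.67% to 6.39%. R1 replicate 2 stood apart from the other R1 libraries on the third principal component (-38.6, against 4.3 to 19.2). Of the melanoma and neural crest markers 8 of 16 had a row, and SOX10, MLANA, TYR, TYRP1, DCT, S100B, S100A1 and NGFR had none. Their summed value was 1632 to 1846 in R1, 2469 to 2750 in R2 and 2535 to 2802 in control, most of it from AXL and MCAM. Members of this list went both ways, with 2 up and 5 down in R1, beside 22.4% and 21.4% of all genes. In R2 2 were up and 3 down, beside 13.6% and 14.8%. The rises in R1 were PMEL (log2 fold change 2.24) and CSPG4 (1.65), and the falls included MITF (-1.11) and AXL (-0.95). Of the endothelial markers 5 of 12 had a row, and CDH5, KDR and TEK had none. The 5 summed to 453 to 602 in R1, 156 to 213 in R2 and 181 to 223 in control, most of it from TIE1 and ROBO4. Keratinocyte markers (2 of 7 with a row) summed to 25.5 to 39.9, 14 to 21.8 and 16.8 to 19.3, fibroblast and pericyte markers (6 of 12) to 514 to 670, 742 to 827 and 627 to 741, and leukocyte and macrophage markers (2 of 14) to 12.2 to 47.7, 21.3 to 55.5 and 4.65 to 11.9. Most of this last sum was NCAM1, also a neural cell marker, which rose in R1 and R2 (adjusted p = 0.0046 and 0.0012). By contrast CSF1R, the macrophage receptor, fell in R2 (adjusted p = 0.019), at 12 to 18 reads per library against 28 to 61 in control. That call was lost without R2 replicate 1 or control replicate 3 or 4. Reads from host cells were not separated here, and in bulk RNA fewer cells of a type and less RNA per cell cannot be told apart.

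The 8 genes did not move as a block. EPHA4 rose in both inhibitor groups, MYC and IER3 fell in R1, and EGR1, EPHA2 and ETV5 fell in R2. A gene is said to rise or fall where the limma test gave an adjusted p under 0.05 over all 12931 genes. In R1 against control 3 of the 8 changed, 1 up and 2 down, beside 43.8% of all genes, and the ranges of the libraries did not overlap for 4 of the 8, beside 39.7% of all genes. In R2 against control 4 changed, 1 up and 3 down, beside 28.4% of all genes, and 3 had ranges that did not overlap, beside 34.8%. In R2 against R1 5 changed, 2 up and 3 down, beside 46.8% of all genes, and 3 had ranges that did not overlap, beside 39.4%. The median log2 fold change of the 8 was -0.04, -0.47 and -0.25 in these comparisons, against 0.01, 0.03 and 0.00 over all genes. The first and the second comparison share the control libraries.

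**Figure D1:**
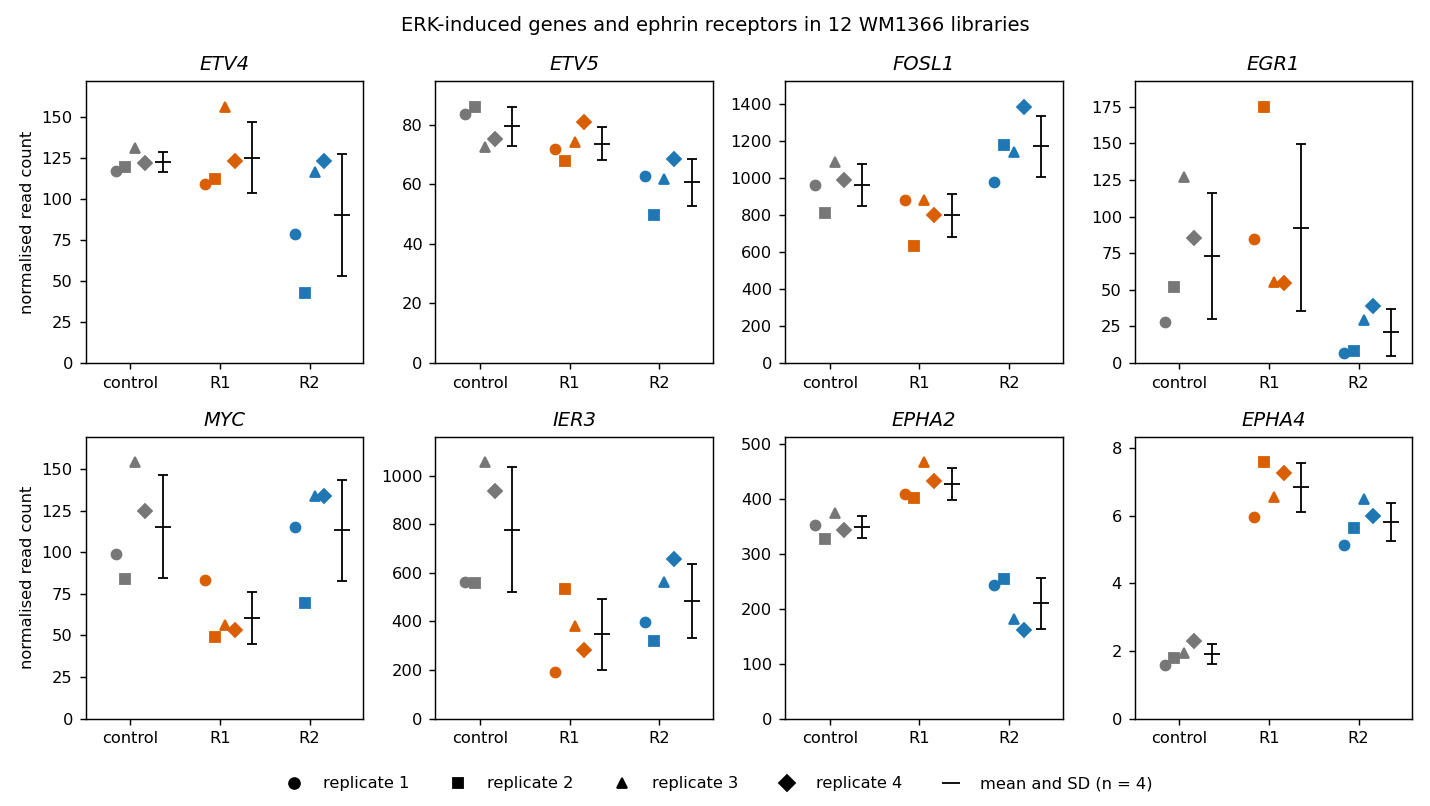
Normalised read count (y axis, linear, from 0) of each of the 8 genes in the 12 libraries by group, with 1 symbol per replicate and the mean and SD (n = 4) beside each group. EPHA4 is above control in all 8 libraries of R1 and R2, MYC and IER3 are below control in all 4 R1 libraries, and EPHA2 is below control in all 4 R2 libraries.

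**Figure D2:**
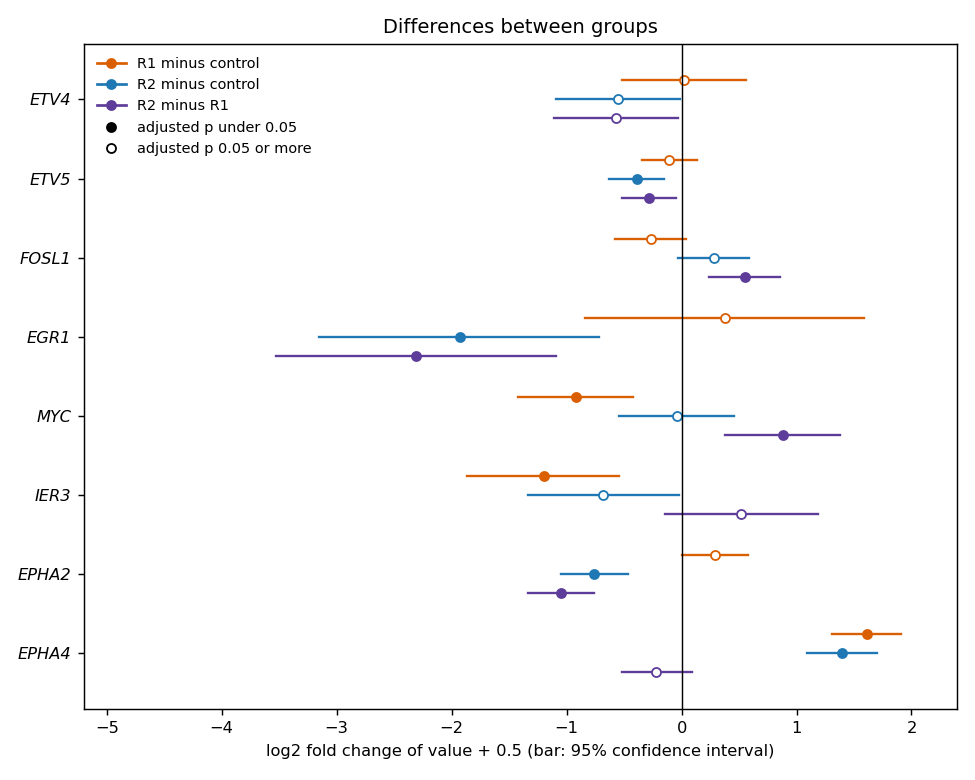
Log2 fold change of value + 0.5 (x axis) for each gene and comparison, with the 95% confidence interval as a bar and filled points where the adjusted p was under 0.05. EPHA4 lies at 1.61 and 1.40 against control, whereas EGR1 has the widest intervals, from -3.15 to -0.72 for R2 against control.

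The PEA3-type ETS factors ETV4 and ETV5, transcription factors of migration and outgrowth programmes, were not higher in either inhibitor group. ETV4 (chromosome 17, 43527844 to 43579620, minus strand, GRCh38) had 109, 112, 156 and 123 in R1 replicates 1 to 4, 78.6, 42.7, 116 and 123 in R2, and 117, 119, 131 and 122 in control. Control libraries lay within 1.11-fold of each other, while R2 replicates 1 and 2 fell below every other library and R2 replicate 4 lay within the control range, so that the groups overlapped. The difference from control was 0.02 on the log2 scale in R1 (95% confidence interval -0.52 to 0.56, adjusted p = 0.96) and -0.55 in R2 (-1.09 to -0.01, adjusted p = 0.12). The R2 value was -0.74 without R2 replicate 4 (adjusted p = 0.045) and -0.23 without R2 replicate 2. R2 minus R1 was -0.57 (adjusted p = 0.076), and passed the test without R2 replicate 3 (-0.73, adjusted p = 0.036) or 4 (-0.76, adjusted p = 0.025).

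ETV5 (chromosome 3, 186046308 to 186110318, minus strand) had 71.7, 67.7, 74.3 and 80.8 in R1, 62.8, 49.7, 61.9 and 68.4 in R2, and 83.6, 86.0, 72.6 and 75.2 in control. All 4 R2 libraries were below all 4 control libraries, and R1 overlapped both. ETV5 fell in R2, to 60.7 ± 7.9 from 79.3 ± 6.49 (log2 fold change -0.39, SE 0.11, adjusted p = 0.017), a call that was lost without control replicate 2 (-0.35, adjusted p = 0.055). In R1 it was at 73.6 ± 5.54 (-0.11, adjusted p = 0.46). R2 was lower than R1 by a margin at the threshold (-0.28, adjusted p = 0.048), which passed the test only without R1 replicate 2 or R2 replicate 4 among the 12 fits that left out 1 library. A stretch of 68 bases of ETV4 exons overlaps the opposite-strand gene DHX8, and 164 bases of ETV5 exons overlap DGKG on the same strand, and reads there cannot be assigned with certainty.

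Other ETS factors moved in both directions. Of the 15 with a row among 20 named, 2 rose and 6 fell in R1, and 2 fell in R2 (median log2 fold changes -0.30 and -0.02). Over all genes 22.4% rose and 21.4% fell in R1, and 13.6% rose and 14.8% fell in R2. ETV1, the remaining PEA3 factor, fell in both groups, at 28.4 ± 7.5 in R1 (-1.0, adjusted p = 0.00033) and 38 ± 5.08 in R2 (-0.56, adjusted p = 0.025) against 55.9 ± 5.76 in control. ETV1 did not pass in R2 when R2 replicate 1 or 3, or control replicate 3 or 4, was left out (adjusted p = 0.066 to 0.073). ETS2, an ERK-phosphorylated ETS factor, fell in R2 (63.4 ± 9.72 against 107 ± 8.67, log2 fold change -0.77, adjusted p = 0.00031), and ETV3, a repressor of the family, rose in R1 (56.5 ± 4.22 against 32.7 ± 3, 0.78, adjusted p = 5.1e-05). The 2 ETS rises in R1 became 1 when R1 replicate 2 or 4, or any of control replicates 1 to 3, was left out, and the 2 falls in R2 became 1 without R2 replicate 1 or 3 or control replicate 3 or 4. Without R2 replicate 2, 1 ETS gene rose in R2.

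The regulators that act on ETV4 and ETV5 were measured as transcripts only. CIC, the repressor, fell in R1 to 133 ± 19.7 from 221 ± 22.2 in control (log2 fold change -0.74, adjusted p = 0.00014) and was at 205 ± 13.5 in R2 (-0.11, adjusted p = 0.52). In R1 the 4 CIC values were 137, 157, 110 and 126, below all values of the other groups, which ran from 188 to 255. RFWD2, the symbol the files use for COP1, rose in R1 (33.2 ± 3.84 against 23.2 ± 0.459, 0.50, adjusted p = 0.0027). TRIB1, a pseudokinase that guides COP1 to its substrates, fell in R2 (4.48 ± 2.02 against 8.86 ± 0.349, -1.0, adjusted p = 0.011). This list holds 11 symbols, with COP1 and RFWD2 as 1 gene, and 10 had a row. Of these 10, 1 rose and 1 fell in R1 (22.4% and 21.4% of all genes), and 1 rose and 3 fell in R2 (13.6% and 14.8%). The single rise in R2 was ATXN1, a CIC partner (0.53, adjusted p = 0.046), which did not pass without any 1 of 9 libraries: R1 replicates 1 and 4, all 4 R2 replicates, and control replicates 1, 3 and 4.

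FOSL1, the FRA-1 subunit of the AP-1 transcription factor, differed between the inhibitor groups and not beyond the threshold from control. It lies on chromosome 11, 65892049 to 65900573, minus strand. Its values were 881, 635, 882 and 803 in R1, 981, 1177, 1142 and 1387 in R2, and 962, 813, 1088 and 990 in control. The lowest R2 library was above the highest R1 library, and control overlapped both. R2 exceeded R1 1.46-fold, at 1172 ± 167 against 800 ± 116 (log2 fold change 0.55, SE 0.14, adjusted p = 0.0062). Against the control mean of 963 ± 114, R1 differed by -0.27 (95% confidence interval -0.58 to 0.04, adjusted p = 0.14) and R2 by 0.28 (-0.03 to 0.59, adjusted p = 0.16).

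FOSL2, the closest relative of FOSL1 in the family, fell in both inhibitor groups, to 106 ± 9.63 in R1 (log2 fold change -1.45, adjusted p = 1.3e-07) and 186 ± 11.4 in R2 (-0.64, adjusted p = 0.00038) from 291 ± 32.7 in control. FOS, the archetypal immediate-early AP-1 gene, was low throughout. It had 6.55, 13.4, 4.75 and 4.51 in R1, 0.552, 0.698, 1.56 and 1.1 in R2, and 1.8, 2.3, 3.18 and 3.62 in control, and the 3 groups did not overlap. FOS rose in R1 (1.18, adjusted p = 0.0073) and fell in R2 (-1.14, adjusted p = 0.014). Of the 15 AP-1 factors with a row among 16, 6 rose and 4 fell in R1 (22.4% and 21.4% of all genes), and 1 rose and 6 fell in R2 (13.6% and 14.8%). The 6 falls in R2 became 3 without control replicate 3 or 4, and the rise became 0 without R2 replicate 3 or 4 or control replicate 4.

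Genes known as partners or targets of FOSL1 were mixed as well. Of the 17 with a row among 18, 8 rose and 5 fell in R1 (median 0.15, beside 22.4% up and 21.4% down over all genes). In R2 1 rose and 4 fell (median -0.42, beside 13.6% and 14.8%). PLAU, the urokinase protease, stands in this list and in the list of ERK output genes below. It was at 2097 ± 656 in R1, 478 ± 49.2 in R2 and 874 ± 114 in control (log2 fold change 1.21, adjusted p = 0.00035, and -0.87, adjusted p = 0.0062). The interstitial collagenase MMP1 rose in R1 (365 ± 201 against 35.6 ± 6.88, 3.0, adjusted p = 0.0023). R1 replicate 1, at 64.5, lay below the other R1 libraries (445 to 482), and the MMP1 difference was 3.71 without it. The cytokine IL6 fell there (7.48 ± 4.4 against 95 ± 37.4, -3.63, adjusted p = 7.1e-06). In R2 the single rise was CD44, a hyaluronan receptor (log2 fold change 0.33, adjusted p = 0.047). Leaving out R1 replicate 1 or 4, R2 replicate 3 or 4 or any control library ended that call (adjusted p up to 0.14).

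EGR1, a zinc-finger transcription factor and the textbook immediate-early target of ERK and SRF, was lowest in R2 and had the largest coefficient of variation of the 8 within every group (61.6% in R1, 75.9% in R2, 59.1% in control). EGR1 lies on chromosome 5, 138465490 to 138469315, plus strand. The 250 bases before its start are shown because they hold SRF sites of the kind through which the gene is known to be induced. Bases farther upstream were not searched. Capitals mark CArG boxes, the pattern of C, C, then 6 bases of A or T, then G, G.

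EGR1 upstream window, chr5:138465229-138465478, plus strand, RefSeq GRCh38.p14: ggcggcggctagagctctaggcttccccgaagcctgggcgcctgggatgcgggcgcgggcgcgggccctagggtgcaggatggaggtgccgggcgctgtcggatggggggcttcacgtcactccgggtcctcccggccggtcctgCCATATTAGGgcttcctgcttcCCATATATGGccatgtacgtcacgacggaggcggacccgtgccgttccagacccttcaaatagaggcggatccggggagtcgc

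The window held 2 CArG boxes, at 105 to 96 and 83 to 74 bases before the start, and 68.4% of its bases were G or C. A CArG box on either strand occurred in 1.16% of 35116 RefSeq windows of this length. No match was found to the AP-1 letters TGANTCA (6.57% of windows), the cAMP response element TGACGTCA (1.65%), the ETS letters CCGGAAGT (3.42%) or ACCGGAAG (1.78%, overlapping the former), the E-box CACGTG (6.34%), or the CIC letters TGAATGAA (1.4%) or TCAATGAA (0.635%). The match is to these exact letters, and no binding was measured. Shorter or variant ETS sites were not searched, so that the window may hold them.

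The EGR1 values were 85.0, 175, 55.0 and 54.8 in R1, 7.01, 8.1, 29.6 and 38.8 in R2, and 27.7, 51.7, 127 and 85.6 in control. Every R2 library was below every R1 library, whereas R2 replicates 3 and 4 were above control replicate 1, so that R2 and control overlapped. The highest library exceeded the lowest 3.2-fold within R1, 5.54-fold within R2 and 4.59-fold within control. EGR1 fell in R2 against control, to 20.9 ± 15.9 from 73 ± 43.2 (0.286 of the control mean, log2 fold change -1.93, SE 0.57, adjusted p = 0.02). That call was lost without R2 replicate 1 or 2 (-1.55 and -1.61, adjusted p = 0.067 and 0.059) or control replicate 3 or 4 (-1.59 and -1.78, adjusted p = 0.07 and 0.058). R2 was lower than R1 by 2.31 on the log2 scale, at 20.9 ± 15.9 against 92.6 ± 57 (adjusted p = 0.0043), and this held without each library in turn (adjusted p up to 0.016). R1 and control were not told apart (0.38, 95% confidence interval -0.84 to 1.59, adjusted p = 0.61).

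The EGR co-repressor NAB2, itself an EGR1-induced gene, rose in R1 and fell in R2. NAB2 had 51.3, 62, 65.1 and 61.5 in R1, 22.1, 22.9, 21.7 and 18.2 in R2, and 24.9, 26.2, 51.5 and 41.9 in control. The log2 fold change was 0.79 in R1 (adjusted p = 0.0048) and -0.69 in R2 (adjusted p = 0.016, and -0.60, adjusted p = 0.056, without control replicate 4). MKL1, a coactivator of SRF, fell in R1 to 30.4 ± 1.3 from 50.6 ± 3.56 (-0.73, adjusted p = 9.8e-05). Of the 6 genes with a row among the 11 symbols of the EGR, SRF and NAB list, 2 rose and 2 fell in R1 (22.4% and 21.4% of all genes). In R2 1, NAB2, fell (14.8% of all genes), and 1 rose without R1 replicate 3. EGR2, EGR3 and EGR4 had no row. MRTFA and MRTFB, also without one, are newer symbols of MKL1 and MKL2, which had rows.

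Of the 27 symbols of other immediate-early genes, 23 had a row. CCN1 and CCN2, without one, are newer symbols of CYR61 and CTGF, which had rows. Of the 23, 6 rose and 4 fell in R1 (median -0.06, beside 22.4% up and 21.4% down over all genes). In R2 2 rose and 6 fell (median -0.30, beside 13.6% and 14.8%), and in R2 against R1 3 rose and 8 fell, beside 22.8% and 24%. IER2, a small nuclear immediate-early protein, rose in R1 (155 ± 21.4 against 64.8 ± 2.98, log2 fold change 1.24, adjusted p = 6.1e-07). PHLDA1, an ERK-induced gene of survival control, fell in R2 to 102 ± 9.27 from 534 ± 151 (-2.35, adjusted p = 9.8e-07). The phosphatase DUSP1 fell in R2 to 8.33 ± 1.66 from 55.1 ± 42.9 (-2.31, adjusted p = 0.0013), and the kinase PLK2 fell in R1 (60 ± 12.3 against 162 ± 21.6, -1.44, adjusted p = 2.9e-05). The matrix protein gene CTGF was lower in R2 than in R1, at 187 ± 51.4 against 969 ± 341 (-2.32, adjusted p = 3.8e-05). Without R1 replicate 1 or control replicate 3 or 4 the 4 falls in R1 became 2, and without R2 replicate 4 the 3 rises in R2 against R1 became 1.

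Control libraries differed among themselves in these genes, as they did on the third principal component over all genes. DUSP1 had 24.3, 18.3, 111 and 67.4 in control replicates 1 to 4, and NAB2, EGR1, MYC and IER3 were likewise higher in replicates 3 and 4 than in 1 and 2. The same order was seen in R2 for EGR1, MYC, IER3 and ETV4. The labels name no batch for these replicates, and which factor they share was not tested. All 15 handling-stress genes had a row. They summed to 6161 to 7786 in R1, 8489 to 9893 in R2 and 7026 to 7679 in control. Most of that sum was HSPA8 and HSP90AA1. HSPA1A had 12.9, 75.2, 12.7 and 11.7 in R1, 40.8, 45.8, 28.4 and 35.4 in R2, and 19.7, 22.4, 45.2 and 35.1 in control. DDIT3 had 19.6, 90.8, 22.8 and 18.8 in R1, 3.2, 9.31, 3.65 and 3.35 in R2, and 12.3, 13, 41.7 and 25.7 in control. Both peaked in R1 replicate 2, where EGR1 was highest and the sum lowest. In control both were higher in replicates 3 and 4, and in R2 they were not. The part of handling stress in the immediate-early values was not tested.

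**Figure D3:**
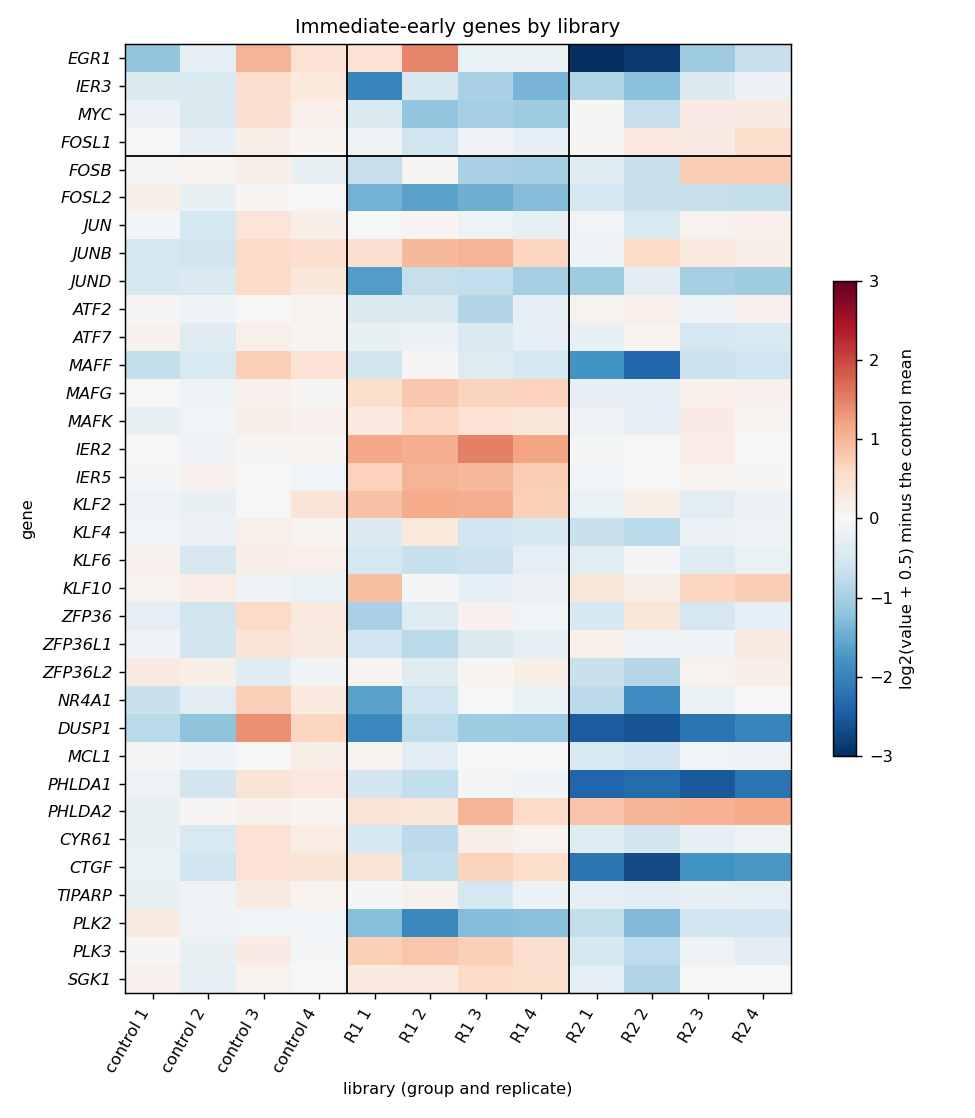
Log2(value + 0.5) minus the control mean (colour, limited to 3 in either direction) for 34 immediate-early and AP-1 genes (rows, the 4 described genes above the line, the others with a mean value of at least 5) in the 12 libraries (columns). EGR1 in R2 replicates 1 and 2 lies at the blue end, PHLDA1, CTGF and DUSP1 are low in all 4 R2 libraries, and IER2 is high in all 4 R1 libraries.

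MYC, the basic helix-loop-helix factor that drives ribosome building and growth, fell in R1 and not in R2. The gene lies on chromosome 8, 127735434 to 127741434, plus strand. MYC had 83.4, 49.1, 56.5 and 53.0 in R1, 115, 69.5, 134 and 134 in R2, and 98.7, 83.6, 154 and 125 in control. All 4 R1 libraries were below all 4 control libraries, by a narrow margin between R1 replicate 1 and control replicate 2, and R2 overlapped control. The R1 mean was 60.5 ± 15.5 against 115 ± 31, or 0.524 of control (log2 fold change -0.92, SE 0.23, adjusted p = 0.0054). R2 was at 113 ± 30.4 (-0.04, 95% confidence interval -0.54 to 0.46, adjusted p = 0.92), and its sign turned without R2 replicate 2 or control replicate 3 or 4. R2 exceeded R1 1.87-fold (0.88, adjusted p = 0.0066), with overlapping ranges. R1 libraries also had a lower mitochondrial and a higher ribosomal protein share, which cannot be told apart from other differences between the groups. Scaled to reads outside mitochondrial and ribosomal protein genes, the MYC and IER3 falls in R1 were -0.87 and -1.16 (adjusted p = 0.0067 and 0.0065 in the limma test). The part of these shares in the falls was not tested.

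Of the 15 genes of the MYC network with a row among 20 symbols, 4 fell in R1 (21.4% of all genes), and 3 rose and 2 fell in R2 (13.6% and 14.8% of all genes). Among the symbols without a row, MIZ1 and CIP2A are other names of ZBTB17 and KIAA1524, which had rows, and MYCL1 is another name of MYCL. MNT, a repressor that competes for the shared partner MAX, fell in R1 to 18.9 ± 2.44 from 37.5 ± 4.15 (log2 fold change -0.97, adjusted p = 2.9e-05) and in R2 to 27.7 ± 3.23 (-0.43, adjusted p = 0.018). The R2 call of MNT was lost without R2 replicate 3 or control replicate 3 (adjusted p = 0.059 and 0.065). In R1 the 4 falls became 2 without R1 replicate 4 or control replicate 1 or 2, and 1 gene rose when R1 replicate 1 or 2, or control replicate 3, was left out. In R2 the 3 rises became 0 without R2 replicate 1 or 2 or control replicate 2, 3 or 4 and 1 without control replicate 1. The 2 falls in R2 became 1 or 0 in 7 of the fits that left out a library, namely R1 replicates 1 and 4, R2 replicates 1, 3 and 4, and control replicates 3 and 4.

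Known MYC targets of ribosome building and nucleotide synthesis all had a row, 28 in number. In R1 3 rose and 5 fell (median 0.10, beside 22.4% up and 21.4% down over all genes), and in R2 3 rose and 2 fell (median 0.13, beside 13.6% and 14.8%). Without R1 replicate 2 the rises in R1 became 8, without control replicate 1 the falls became 3, and the rises in R2 became 1 without R2 replicate 1, 3 or 4 and 0 without control replicate 3 or 4. LDHA, lactate dehydrogenase A, fell in R1 to 1039 ± 191 from 2074 ± 616 (log2 fold change -0.97, adjusted p = 0.0015) and was at 2187 ± 217 in R2 (0.12, adjusted p = 0.7).

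IER3, an immediate-early gene whose product influences cell survival, was the member with the deepest fall in R1. It lies on chromosome 6, 30743199 to 30744554, minus strand, and 359 of its exon bases overlap the opposite-strand gene IER3-AS1, which had no row. Whether the counting used strand is not given in the sources used here, so reads of the pair cannot be told apart. IER3 had 192, 533, 380 and 283 in R1, 399, 319, 563 and 656 in R2, and 562, 560, 1055 and 935 in control. Every R1 library was below every control library, while R2 replicates 3 and 4 reached the lower control values. The R1 mean was 347 ± 146 against 778 ± 255, or 0.446 of control (log2 fold change -1.20, SE 0.31, adjusted p = 0.0059), and the call held without each library in turn (-1.44 to -0.95). R2 was at 484 ± 153 (-0.68, 95% confidence interval -1.34 to -0.02, adjusted p = 0.12). R2 minus R1 was 0.52 (adjusted p = 0.18) and passed the test without R1 replicate 2 (0.76, adjusted p = 0.045).

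EPHA2, a receptor of the A class that binds ephrin-A ligands, fell in R2 and was highest in R1. The gene lies on chromosome 1, 16124337 to 16156087, minus strand. EPHA4 (chromosome 2, 221418027 to 221574202, minus strand), which binds ephrins of both classes, rose in R1 and R2. Their upstream windows are shown because both genes moved, in different ways. Capitals mark the cAMP response element TGACGTCA and the CIC letters TGAATGAA.

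EPHA2 upstream window, chr1:16156070-16156319, minus strand, RefSeq GRCh38.p14: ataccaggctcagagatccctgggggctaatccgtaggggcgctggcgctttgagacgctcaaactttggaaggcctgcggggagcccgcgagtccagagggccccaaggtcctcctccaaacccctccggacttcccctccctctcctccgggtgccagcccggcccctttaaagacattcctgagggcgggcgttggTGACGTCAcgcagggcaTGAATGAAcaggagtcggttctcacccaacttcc
EPHA4 upstream window of the outer start, chr2:221574203-221574452, minus strand, RefSeq GRCh38.p14: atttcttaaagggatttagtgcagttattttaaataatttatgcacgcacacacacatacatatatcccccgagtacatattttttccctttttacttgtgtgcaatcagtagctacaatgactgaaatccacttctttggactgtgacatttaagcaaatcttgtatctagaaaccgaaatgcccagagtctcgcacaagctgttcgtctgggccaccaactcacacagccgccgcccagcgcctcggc
EPHA4 upstream window of the inner start, chr2:221572305-221572554, minus strand, RefSeq GRCh38.p14: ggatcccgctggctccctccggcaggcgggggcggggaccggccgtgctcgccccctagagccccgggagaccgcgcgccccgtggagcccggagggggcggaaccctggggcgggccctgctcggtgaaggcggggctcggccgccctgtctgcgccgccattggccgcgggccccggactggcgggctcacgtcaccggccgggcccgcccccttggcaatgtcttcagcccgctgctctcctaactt

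The EPHA2 window held TGACGTCA at 51 to 44 bases and TGAATGAA at 34 to 27 bases before the start, and 63.2% of its bases were G or C. The EPHA4 windows were 43.2% (outer) and 78% (inner) G or C and held no match to the letters searched in the EGR1 window. No window of ETV4, ETV5, FOSL1, MYC or IER3 is printed, and none was searched for these letters.

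EPHA2 had 410, 402, 467 and 433 in R1, 243, 255, 181 and 161 in R2, and 352, 328, 375 and 343 in control. The 3 groups did not overlap, with R1 highest and R2 lowest. EPHA2 fell in R2 to 210 ± 46.5 from 350 ± 19.6, or 0.601 of control (log2 fold change -0.76, SE 0.14, adjusted p = 0.00084). In R1 it was at 428 ± 29.4 and did not pass the test (0.29, 95% confidence interval 0.00 to 0.58, adjusted p = 0.098), although it passed when scaled to reads in listed genes (0.37, adjusted p = 0.032) and when only the 8 libraries compared entered the fit (0.29, adjusted p = 0.039). R2 was at 0.49 of R1 (-1.05, adjusted p = 3.3e-05). Endothelial cells also express EPHA2. The summed endothelial markers were highest in R1, at 453 to 602, but in R2 (156 to 213) they overlapped control (181 to 223). Most of that sum was TIE1 and ROBO4. Of the 5 markers with a row 4 rose in R1, beside 22.4% of all genes, while PECAM1 (1.55 to 4.96) overlapped control (0.842 to 3.96). The part of endothelial cells in the EPHA2 values was not tested.

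EPHA4, a transcript with few reads, was the member that rose against control in both groups. It had 5.97, 7.59, 6.57 and 7.26 in R1, 5.15, 5.63, 6.49 and 6.01 in R2, and 1.60, 1.79, 1.93 and 2.31 in control, from 173 to 246, 121 to 208 and 37 to 46 reads per library. All 8 libraries of the inhibitor groups were above all 4 control libraries, and R1 and R2 overlapped. EPHA4 was 3.59-fold higher in R1 (6.85 ± 0.724 against 1.91 ± 0.3, SE 0.14 around a log2 fold change of 1.61, adjusted p = 9e-07) and 3.05-fold higher in R2 (5.82 ± 0.57, 1.40, adjusted p = 5.8e-06). R2 minus R1 was -0.22 (95% confidence interval -0.52 to 0.09, adjusted p = 0.23). A stretch of 353 exon bases overlaps the opposite-strand gene AC079834.2, which had no row.

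The rest of the Eph and ephrin family was uneven. Of the other EPHA receptors 3 of 7 had a row, of the EPHB receptors 3 of 5, and of the ephrins 7 of 8. The ephrin-B1 ligand gene EFNB1 rose beside EPHA4, with 16.7, 19.4, 16.1 and 16.2 in R1, 13.5, 13.7, 17 and 15 in R2, and 6.73, 7.01, 6.3 and 6.88 in control (log2 fold changes 1.28 and 1.08, adjusted p = 1.3e-06 and 1.1e-05). The ephrin-B3 gene EFNB3 fell in both, to 1.63 ± 0.571 in R1 and 0.706 ± 0.262 in R2 from 20.4 ± 3.24 in control (-3.32 and -4.13, adjusted p = 3.8e-08 and 5.8e-09). Of the ephrins 3 rose and 2 fell in R1 (22.4% and 21.4% of all genes), and 1 rose and 1 fell in R2 (13.6% and 14.8%), where 2 fell without R1 replicate 2 or 3.

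Among the receptors, EPHA5 rose in R2 (7.54 ± 2.84 against 2.75 ± 0.773, log2 fold change 1.27, adjusted p = 0.0034), and EPHB4, a receptor of vessels and epithelia, fell in R1 (19 ± 2.39 against 26 ± 0.429, -0.45, adjusted p = 0.024). The EPHB4 call was lost without R1 replicate 1 or control replicate 4 (adjusted p = 0.068 and 0.053). EPHB2 did not pass the test in R2, where replicates 1 to 4 had 2.01, 0.326, 19.3 and 18.2 against 16 to 31.3 in control (-2.02, adjusted p = 0.063), and it passed without R2 replicate 3 or 4 (-2.66 and -2.63, adjusted p = 0.016 and 0.02). Without R2 replicate 2 it was -1.13 (adjusted p = 0.15). The next 3 genes were chosen after their values were seen. EPHA1 counted 476 reads over the R1 libraries, 96 over R2 and 9 over control (values 3.99 ± 2.05, 0.819 ± 0.364 and 0.0988 ± 0.0463). EPHB1 had 6, 447 and 7 reads (0.0397 ± 0.0481, 3.92 ± 1.48 and 0.0819 ± 0.0528), so that it was near the floor outside R2. EFNA1, a ligand of EPHA2, had 316, 5 and 9 reads (2.77 ± 1.12, 0.0453 ± 0.0391 and 0.104 ± 0.115), near the floor outside R1.

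**Figure D4:**
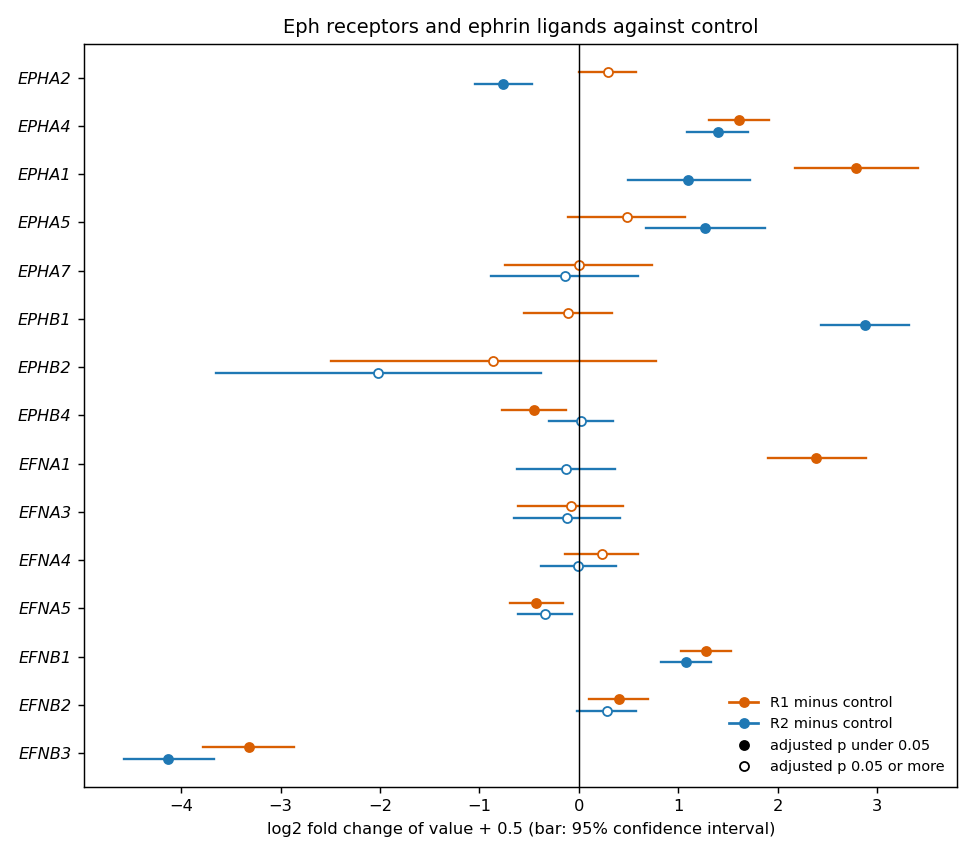
Log2 fold change of value + 0.5 against control (x axis) with the 95% confidence interval for the 15 Eph receptor and ephrin genes with a row, in R1 (orange) and R2 (blue), filled where the adjusted p was under 0.05. EPHA4 and EFNB1 lie to the right and EFNB3 to the left in both groups, while EPHA1 and EFNA1 are far right in R1 and EPHB1 in R2.

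Of the 27 symbols of other ERK output genes, 26 had a row. The remaining symbol, IL8, is an older name of CXCL8, which had a row. In R1 11 rose and 5 fell (median 0.38, beside 22.4% up and 21.4% down over all genes). In R2 1 rose and 16 fell (median -0.61, beside 13.6% and 14.8%), and in R2 against R1 3 rose and 20 fell (median -0.99, beside 22.8% and 24%). The feedback phosphatase DUSP4 had 57.3, 71.2, 109 and 97.3 in R1, 1.54, 1.91, 12.4 and 12.5 in R2, and 33.5, 32.7, 45.5 and 45.6 in control, without overlap between groups. It fell in R2 (log2 fold change -2.87, adjusted p = 0.00077) and differed by 1.05 in R1 (adjusted p = 0.11), which passed when only the 8 libraries compared entered the fit (adjusted p = 0.0017) or with a replicate block (adjusted p = 0.037). The neuropeptide precursor VGF fell in R2 (2.94 ± 3.23 against 40.3 ± 29.5, -3.58, adjusted p = 0.001). AREG, an EGF receptor ligand, rose in R1 (39.4 ± 9.77 against 11.7 ± 4.67, 1.76, adjusted p = 0.00021) and fell in R2 (4.97 ± 1.91, -1.14, adjusted p = 0.0083). TFAP2C, an AP-2 transcription factor, went against these in R1, at 0.202 ± 0.167 against 26.4 ± 2.15 (-5.28, adjusted p = 9.6e-09). The single rise in R2 was CCND1, cyclin D1 (383 ± 48.7 against 268 ± 57.8, 0.53, adjusted p = 0.04). That call did not hold when R2 replicate 1, 3 or 4, or control replicate 3 or 4, was left out (adjusted p = 0.083 to 0.13), with a replicate block (adjusted p = 0.053) or without the trend (adjusted p = 0.051), and the count of rises was 2 without R2 replicate 2. EGR1, EPHA2 and ETV5 shared the direction of most of this list in R2 against control. There FOSL1 and MYC did not pass the limma test (0.28 and -0.04, adjusted p = 0.16 and 0.92). In R2 against R1 FOSL1 and MYC rose, whereas most of this list fell.

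**Figure D5:**
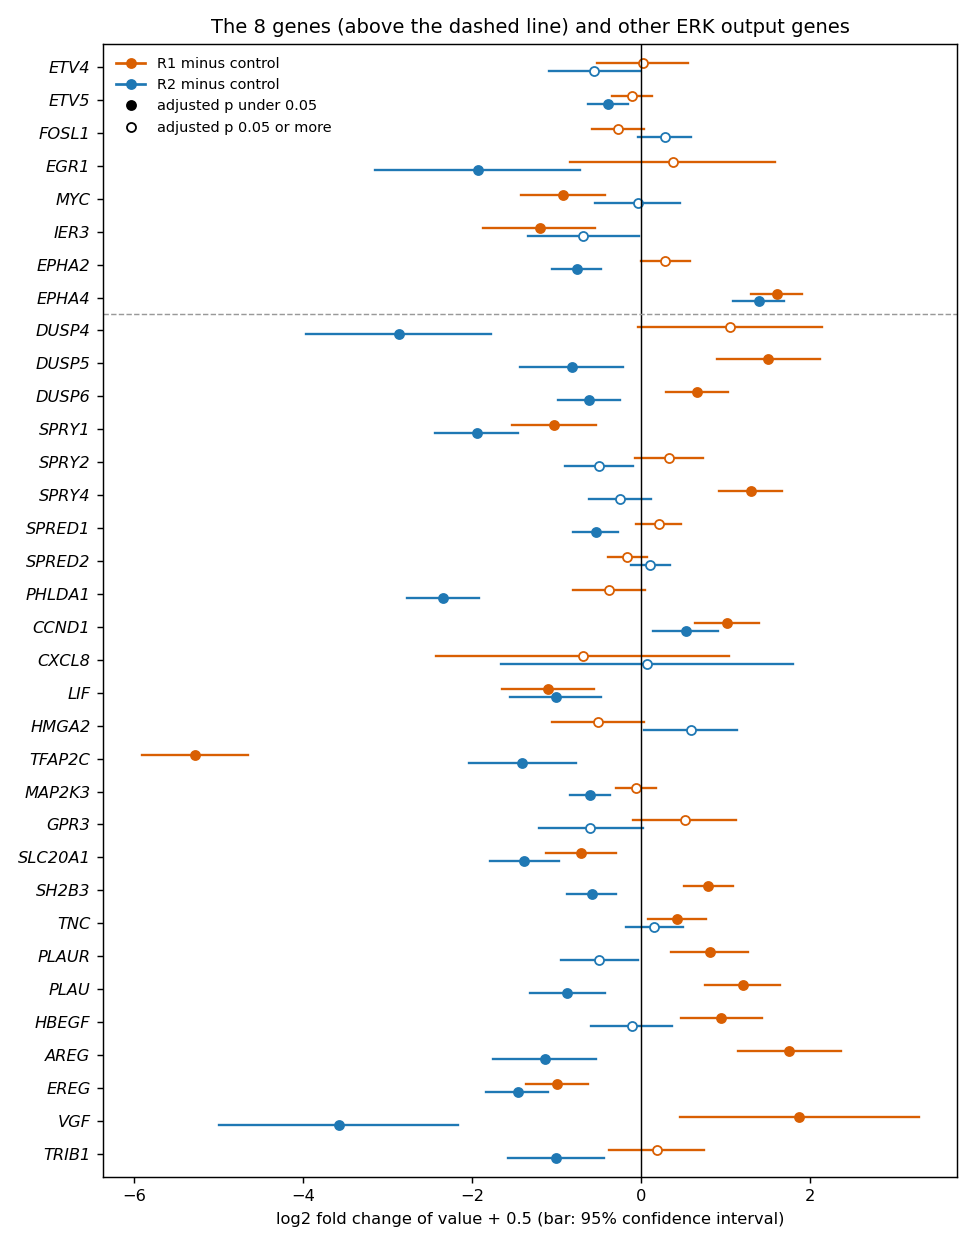
Log2 fold change of value + 0.5 against control (x axis) with the 95% confidence interval for the 8 genes (above the dashed line) and the 26 other ERK output genes, in R1 (orange) and R2 (blue), filled where the adjusted p was under 0.05. Most of the other genes lie left of 0 in R2 and are spread to both sides in R1, and EPHA4 is the member that lies to the right in both.

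Levels between genes were compared per kilobase of exon length, as normalised read count per kilobase. In control the order was IER3 (574 ± 188), FOSL1 (511 ± 60.3), EPHA2 (84 ± 4.71), MYC (38.5 ± 10.3), ETV4 (33.9 ± 1.63), EGR1 (23.3 ± 13.8), ETV5 (13.7 ± 1.12) and EPHA4 (0.253 ± 0.0397). The SDs of IER3 and FOSL1 overlapped, as did those of MYC, ETV4 and EGR1 and those of EGR1 and ETV5. Overlap of SDs leaves out that genes share libraries, and the order of these neighbours was not tested. Before division by length, MYC had 98.7, 83.6, 154 and 125 in control replicates 1 to 4, and EGR1 had 27.7, 51.7, 127 and 85.6. With exon lengths of 3001 and 3138 bases, MYC was above EGR1 in each control library. In R1 FOSL1 (424 ± 61.6) ranked above IER3 (256 ± 108) with SDs that just overlapped, and MYC (20.2 ± 5.18) below ETV4 (34.7 ± 6.01). In R2 EGR1 (6.65 ± 5.05) was below ETV5 (10.5 ± 1.36) with overlapping SDs, and EPHA2 was at 50.5 ± 11.2. EPHA4 remained the lowest in each group, at 0.906 ± 0.0958 in R1 and 0.771 ± 0.0755 in R2.

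The genes whose pattern over the 12 libraries was most like each member were found by the root-mean-square difference of standardised log2 values, among 10399 genes with a mean value of at least 5. This is a description over libraries that share groups, depth and scaling. EPHA2 lay nearest to SPATA20 (0.12) and ZNF740 (0.19), and EPHA4 to EN2 (0.16) and EFNB1 (0.17). For EGR1 they were CSF2 (0.33) and C1QTNF1 (0.34), for IER3 RCN1 (0.34) and VEGFC (0.35), and for MYC SPA17 (0.36) and SHISA5 (0.44). ETV5 lay nearest to DAGLA (0.34) and ARHGAP31 (0.37), ETV4 to RP11-255G12.3 (0.38) and HAS2 (0.39), and FOSL1 to DDX10 (0.41) and RHEB (0.41). The nearest member was farther for each of the 8. Picked from the 8 and not from 10399 genes, it is almost bound to be farther, and no conclusion is drawn from this. It was ETV5 for ETV4 (0.66), MYC for FOSL1 (0.75) and for IER3 (0.89), ETV4 for EGR1 (0.77), EGR1 for EPHA2 (0.96) and FOSL1 for EPHA4 (1.48).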

How the data were processed

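Per the labels' protocols, libraries were made with a TruSeq RNA kit from total RNA isolated on RNeasy columns. STAR, edgeR and GRCh38 are named in the submitters' processing notes, without versions or annotation. Each of the 12 deposited files holds 1 signal per gene, a read count that the authors scaled by library size. Dividing each value by its library's smallest step gave whole reads for 100% of values (tolerance 0.001 reads). The files list 12931 genes, each above 1 CPM of recovered reads in at least 4 libraries.

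Values were compared as log2(value + 0.5) with limma 3.58.1 (R 4.3.3, empirical Bayes with trend), with all 12 libraries and 3 group means in 1 fit. P-values were two-sided and Benjamini-Hochberg adjusted over all 12931 genes, with a threshold of 0.05. Fold changes on this scale understate changes of low genes, and folds of means carry no pseudocount. Intervals are 95%. The 23 alternatives were pseudocounts of 0.1 and 1, a filter, edgeR 4.0.16 and DESeq2 1.42.0 on recovered reads, 3 other scalings, no trend, only the 8 libraries compared, a replicate block and leaving out each library. The scripts were tested on simulated data.

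The 8 genes and the 18 context lists were chosen with earlier results of these data known. Named genes are the members, 4 reference genes (NRAS, DUSP6, SPRY4 and CCND1), the 2 most alike genes per member, and up to 2 called genes per list, comparison and direction with the largest change, if the higher group's mean reached 5. Some genes so chosen are not printed. Others outside this rule, among them CSF1R, PECAM1, ROBO4, HSPA1A and HSP90AA1, were named after their values were seen. List counts stand beside the counts over all genes, with no test of the list. PHLDA1, PLAU, PLAUR, TRIB1 and AXL stand in more than 1 list. Gene positions and exon lengths are from GENCODE (GRCh38) and upstream windows from RefSeq (GRCh38.p14). Windows were found for EGR1, EPHA2 and EPHA4.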

Additional observations from a re-analysis of the deposited data

Results flagged for a closer look

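FOSL1, EGR1 and EPHA2 stood out because the fitted difference from control had opposite signs in the 2 inhibitor groups and the groups themselves differed in the limma test. FOSL1 was at -0.27 in R1 and 0.28 in R2 on the log2 scale, and R2 minus R1 was 0.55 (adjusted p = 0.0062), with R2 above R1 in every library. EGR1 was at 0.38 and -1.93, and R2 minus R1 was -2.31 (adjusted p = 0.0043). EPHA2 was at 0.29 and -0.76, and R2 minus R1 was -1.05 (adjusted p = 3.3e-05), and the 3 groups of 4 libraries did not overlap. Of the single differences from control behind these, those of EGR1 and EPHA2 in R2 passed the test. No library of any gene lay far enough from the other 3 of its group to pass Dixon's outlier test in the 24 gene and group combinations examined.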

How the results depend on the processing

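Under the 23 alternatives, counts of all genes called stayed within 1.5 times the reported ones, and member counts ran from 3 to 4 in R1 against control, 3 to 5 in R2 against control and 4 to 6 in R2 against R1. EPHA4, EPHA2, MYC, IER3, FOSL1 and EGR1 kept every call reported for them under all alternatives, except EGR1 in R2 against control. Without 1 library at a time, differences that changed sign or side of the threshold ran, against control, from -0.09 to 0.08 for ETV4 and -0.01 to 0.72 for EGR1 in R1, and in R2 from -0.74 to -0.23 for ETV4, -0.45 to -0.30 for ETV5, -2.34 to -1.55 for EGR1 and -0.18 to 0.18 for MYC. For R2 against R1 they ran from -0.76 to -0.25 for ETV4, -0.34 to -0.19 for ETV5 and 0.27 to 0.76 for IER3. The sign turned for ETV4 in R1 without R1 replicate 3 (-0.09), for EGR1 in R1 without control replicate 1 (-0.01), and for MYC in R2 without R2 replicate 2 (0.18) or control replicate 3 (0.11) or 4 (0.01). LDHA in R2 against control ran from -0.03 to 0.25, with the sign turned without control replicate 1. EPHA2 passed in R1 against control scaled to listed reads (0.37, adjusted p = 0.032) and with only the 8 libraries compared (0.29, adjusted p = 0.039). ETV5 in R2 against R1 no longer passed with edgeR (-0.28, adjusted p = 0.051), without the trend (-0.28, adjusted p = 0.064) or with only the 8 libraries compared (-0.28, adjusted p = 0.084). The cause of these changes was not tested. Counts of context lists moved by over 1.5 times in 186 recomputed values, against 2298 that stayed within that range.

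With the replicate number as a block, 5798, 3733 and 6162 genes were called, against 5667, 3667 and 6053. ETV4 then passed in R2 against R1 (-0.57, adjusted p = 0.043) and ETV5 did not (-0.28, adjusted p = 0.055). Of the other genes named, DUSP4 in R1 against control passed with the block (1.05, adjusted p = 0.037), while CCND1 and CD44 in R2 against control did not (0.53 and 0.33, adjusted p = 0.053 and 0.056). The 12 same-numbered pairs had correlations of -0.31 to 0.387, of which 5 were above 0.1. The own number correlated best of 4 libraries in 11 of 24 cases. These values do not settle whether the numbers pair the libraries, and the main fit did not pair them. Depth limits the lowest transcripts: EPHA4 had 37 to 46 reads in each control library, and values near 0.158 correspond to 3 reads.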
